A study of Mus musculus with 13 samples.

Results

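Crip1, Fxyd5, the galectin genes Lgals1 and Lgals3, Vim, Anxa2 and the S100 genes S100a4, S100a6, S100a10 and S100a11 were examined in sorted brain myeloid cells of β-amyloid mice with and without Trem2. They are 10 of the 52636 genes listed for each mouse, matched by Ensembl identifier, and were grouped by their membership in an activated, motile macrophage programme. The list was selected on the comparison of genotypes in these same mice, so the differences between genotypes for these genes are given as a description and support nothing. Crip1 was 2.76-fold and Fxyd5 2.47-fold lower in mice without Trem2. The galectin, annexin and S100 genes overlapped between the genotypes, and among PS2APP mice alone S100a6 ran from 0.323 to 4.01 nRPKM, a read count scaled by gene length and library size.

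These genes are widely used to mark macrophages that are activated or have recently entered a tissue. S100 proteins bind calcium through EF-hand motifs and act as dimers on cytoskeletal and membrane partners, and annexins bind acidic phospholipids in a calcium-dependent way. Galectins bind β-galactoside sugars on glycoproteins, inside and outside the cell. Resting microglia are known for low levels of most of them, while monocytes and macrophages at the borders of the brain carry more, and galectin-3 is also made by microglia near plaques.

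RNA came from CD11b+ CD45+ cells of cortex and hippocampus, sorted by FACS without Ly6g+ and Ccr2+ cells, in mice of 14 to 15 months. The gate holds microglia with a small share of perivascular macrophages. The 7 PS2APP mice (5 females, 2 males) had intact Trem2, and the 6 PS2APP;Trem2KO mice (5 females, 1 male) carried the Trem2tm1(KOMP)Vlcg null allele, which removes Trem2 from every cell. Mice of both groups were homozygous for the PS2APP transgenes, human presenilin 2 with the N141I change and human amyloid precursor protein with the K670N and M671L changes, and no mouse without these transgenes was analysed here. The null allele was made on C57BL/6N and crossed to PS2APP mice on C57BL/6J. Each mouse was 1 replicate. Values per mouse are nRPKM, an RPKM (read count divided by gene length and by library size) adjusted by a size factor. Differences are log2 fold changes of PS2APP;Trem2KO over PS2APP, fitted to read counts with edgeR's quasi-likelihood test over 17086 genes.

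Total counts were between 26120961 and 120569609 per mouse, with a median of 35201380 in PS2APP and 55371726 in PS2APP;Trem2KO mice. Trem2 was at 818 nRPKM or more in every PS2APP mouse and at 2.29 or less in every PS2APP;Trem2KO mouse. The microglial markers P2ry12, Tmem119 and Sall1 were above 0 in all mice, with P2ry12 at 1950 ± 264 nRPKM (SD, n = 7) in PS2APP and 1950 ± 252 (SD, n = 6) in PS2APP;Trem2KO mice. The 12 microglial markers summed to between 16200 and 20000 nRPKM, so the labelled cell type was present in every library. Not all of these markers were level between genotypes. Cx3cr1 was at 1530 ± 144 nRPKM (SD, n = 7) in PS2APP and 1090 ± 127 (SD, n = 6) in PS2APP;Trem2KO mice. Its log2 fold change was -0.49 ± 0.09 (SE), with an adjusted p of 0.0067 by edgeR's quasi-likelihood test. No other marker of that list was called lower or higher by that test. Summed levels of 12 border macrophage markers were between 54.7 and 98.6, and those of 11 monocyte markers between 4.3 and 27.8. The sum of 12 neutrophil markers varied more, from 15 to 266 in PS2APP and from 0.278 to 46.7 in PS2APP;Trem2KO mice. In bulk RNA, fewer cells of a type and less RNA per cell cannot be told apart. The highest monocyte marker sums were 27.8 in PS2APP replicate 2, a male, and 21.5 in PS2APP;Trem2KO replicate 3, a female. These 2 mice also had the highest dendritic cell marker sums of their genotypes, 13.5 and 25. They were also the highest mice of their genotypes for S100a4 and S100a6, and the leading differences are given with and without them.

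The 4 S100 genes lie on mouse chromosome 3 (GRCm38). S100a4 (90603771 to 90606045) and S100a6 (90612882 to 90624181) are 6836 bases apart, with S100a5 between them. They lie in a dense S100 cluster that also holds S100a8 and S100a9. S100a11 (93520488 to 93526287) and S100a10 (93555080 to 93564643) form a second pair with 28792 bases between them, and 2896306 bases separate S100a6 from S100a11. Crip1 is on chromosome 12 (113146316 to 113153879), Fxyd5 on the minus strand of chromosome 7 (31032722 to 31042481), Anxa2 on chromosome 9 (69453620 to 69491795) and Vim on chromosome 2 (13573927 to 13582826). Lgals3 (chromosome 14, 47367751 to 47386160) and Lgals1 (chromosome 15, 78926725 to 78930465) are unlinked. All 10 are protein-coding.

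Sequence before the start site is shown for Crip1, the member with the largest fold difference between genotypes. S100a4 and S100a6 are shown as nearby genes whose levels moved together from mouse to mouse, and Anxa2 as a contrast from another chromosome. The sequences are RefSeq promoters (GRCm38.p6), 5′ to 3′, at chr12:113151762-113152011 for Crip1, chr3:90603520-90603769 for S100a4, chr3:90612644-90612881 for S100a6 and chr9:69453433-69453619 for Anxa2, all on the plus strand and cut where an annotated exon begins. The starts are those of RefSeq, and the Crip1 window lies inside the span of the gene given above. Capitals mark matches to the motif letters searched, which are given after the sequences.
Crip1: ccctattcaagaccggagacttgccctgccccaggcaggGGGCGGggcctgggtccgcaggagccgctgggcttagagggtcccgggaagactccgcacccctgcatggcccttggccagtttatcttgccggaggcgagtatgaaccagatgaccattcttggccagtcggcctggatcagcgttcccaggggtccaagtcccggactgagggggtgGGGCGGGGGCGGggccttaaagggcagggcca
S100a4: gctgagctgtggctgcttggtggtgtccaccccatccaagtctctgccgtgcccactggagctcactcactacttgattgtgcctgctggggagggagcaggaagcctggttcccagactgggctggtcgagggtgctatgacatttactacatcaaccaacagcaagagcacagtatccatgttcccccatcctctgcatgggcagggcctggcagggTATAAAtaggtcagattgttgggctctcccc
S100a6: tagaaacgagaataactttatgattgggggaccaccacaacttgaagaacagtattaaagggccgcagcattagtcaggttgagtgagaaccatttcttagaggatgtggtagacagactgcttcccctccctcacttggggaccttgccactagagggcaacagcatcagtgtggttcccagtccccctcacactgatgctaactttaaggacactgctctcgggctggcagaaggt
Anxa2: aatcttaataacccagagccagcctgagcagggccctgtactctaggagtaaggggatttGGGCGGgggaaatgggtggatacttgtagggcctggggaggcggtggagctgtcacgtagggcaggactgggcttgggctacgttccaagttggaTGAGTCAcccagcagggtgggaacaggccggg

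The promoter table held 8 of the 10 genes, all but Lgals1 and S100a10. The 250 bases before each RefSeq start were searched on both strands. For Crip1, Lgals3 and Vim these windows lie inside the gene spans given above. The GC box letters GGGCGG were in 4 of the 8 (Crip1, Anxa2, Lgals3 and S100a11) and in 32.7% of 32851 promoters of that length. A TATAAA was in 3 of the 8 (S100a4, Vim and Anxa2), against 12.4% of all. It began 31 bases before the start of S100a4, 32 before that of Vim and 17 before that of Anxa2. In Anxa2 it lies in the exon part cut from the sequence shown, as do the GC boxes that begin 48 and 24 bases before the start. The AP-1 letters TGANTCA were in Anxa2 and S100a11, against 6.75% of all, and the E-box letters CACGTG in S100a11 alone, against 6.02%. The PU.1 letters GAGGAAGT, present in 2.44% of all promoters, were in none of the 8 windows. In Crip1, 2 of its 3 GC boxes lay side by side, the first base of the nearer one 26 bases before the start. Fxyd5 and S100a6 held none of these letters, so S100a6 shared no searched motif with the nearby S100a4 or with Crip1. No match overlapped another. These matches are descriptions of the windows and are not sites of binding.

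Crip1 encodes a small LIM-domain protein linked to the actin cytoskeleton. Its level in PS2APP mice was lowest at 4.78, had a median of 8.55 and was highest at 18.2 nRPKM. Both ends of that range were males. In PS2APP;Trem2KO mice the lowest, median and highest values were 1.83, 3.43 and 5.92. All but 1 of the mice without Trem2 were below every PS2APP mouse, and replicate 3, at 5.92, overlapped the lower end. The means were 9.82 ± 4.71 (SD, n = 7) and 3.57 ± 1.42 (SD, n = 6), and the fitted log2 fold change was -1.46 ± 0.32 (SE). It rested on 133 to 1029 reads per mouse.

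Fxyd5, also called dysadherin, encodes a single-pass membrane protein that modulates the sodium pump and weakens cell adhesion. In PS2APP mice its nRPKM was 4.15 at the lowest, 6.76 at the median and 8.74 at the highest. Without Trem2 it was 1.94, 2.5 and 4 in the same order. The genotypes did not overlap, since the highest PS2APP;Trem2KO mouse was below the lowest PS2APP mouse. The means were 6.79 ± 1.49 (SD, n = 7) and 2.75 ± 0.722 (SD, n = 6), and the fit gave a log2 fold change of -1.31 ± 0.18 (SE) on 522 to 3414 reads per mouse.

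Vim encodes vimentin, the intermediate filament of motile mesenchymal and myeloid cells. Its nRPKM ran from 2.36 through a median of 3.97 to 6.18 in PS2APP mice and from 2.07 through 2.78 to 4.28 in PS2APP;Trem2KO mice. The ranges overlapped, and 2 of 6 mice without Trem2 were lower than any mouse with it. The log2 fold change was -0.47 ± 0.21 (SE).

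Lgals3 encodes galectin-3, a lectin that multimerises on glycans and gathers at damaged lysosomes. By mean nRPKM it was the highest of the 10 genes in both genotypes. PS2APP mice ranged from 10.6 to 25.6 nRPKM around a median of 16.7, and PS2APP;Trem2KO mice from 13.2 to 35.7 around 23.9. The ranges overlapped, and 2 of the 6 PS2APP;Trem2KO mice were above every PS2APP mouse. Its log2 fold change was 0.54 ± 0.21 (SE), opposite in sign to those of Crip1 and Fxyd5. Lgals1 encodes galectin-1, a small dimeric lectin. It ranged from 1.89 to 5.19 nRPKM (median 3.23) with Trem2 and from 1.87 to 3.82 (median 3.03) without, and its log2 fold change was -0.37 ± 0.26 (SE).

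Anxa2 encodes annexin A2, and S100a10 encodes p11, the S100 protein that pairs with it in a heterotetramer at the plasma membrane, where plasminogen is activated. Anxa2 spread widely within each genotype, from 7.83 to 23.9 nRPKM (median 9.82) in PS2APP mice and from 6.04 to 19.9 (median 11.9) in PS2APP;Trem2KO mice. S100a10 stayed within 2.08 to 4.95 (median 3.15) and 2.53 to 4.81 (median 3.02). The log2 fold changes were -0.15 ± 0.32 (SE) for Anxa2 and 0.08 ± 0.2 (SE) for S100a10, and both genes overlapped between genotypes. Although the proteins work as a pair, the ratio of the Anxa2 level to the S100a10 level was between 2.06 and 7.96 over the 13 mice. Its median was 4.41 in PS2APP and 3.46 in PS2APP;Trem2KO mice.

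S100a6, or calcyclin, encodes an S100 protein that binds annexins, and S100a4 encodes one that binds non-muscle myosin and is used as a marker of motile cells. Both were low in most mice and high in a few. S100a6 was between 0.323 and 1.82 nRPKM in 6 PS2APP mice and at 4.01 in replicate 2. Among PS2APP;Trem2KO mice, 5 were between 0.992 and 1.63, and replicate 3 was at 4.36. S100a4 had the same high mice, at 1.46 and 1.34, with a median of 0.273 in PS2APP mice and of 0.465 in PS2APP;Trem2KO mice. Every PS2APP;Trem2KO mouse lay above the PS2APP median for both genes, yet the ranges overlapped, with S100a6 of replicate 3 alone above every PS2APP mouse, and the log2 fold changes were 0.29 ± 0.52 (SE) and 0.4 ± 0.62 (SE). S100a4 rested on 0 to 41 reads per mouse.

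S100a11 encodes an S100 partner of annexin A1. It had between 0 and 9 reads in any mouse and was under 3 reads in 4 PS2APP and 2 PS2APP;Trem2KO mice, so no fold is given. A count of 3 corresponds to 0.0249 to 0.115 CPM, counts scaled to the library's total, depending on the mouse. S100a11 shares 41.1% of its 50-base transcript words with 3 other annotated genes, and S100a4 shares 47.4% with Gm42674. The deposited values hold uniquely aligned reads only, so the levels of these 2 genes are uncertain. The shared part was 1.35% for Anxa2, 0.27% for Fxyd5 and 0 for the other members.

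**Figure D1:**
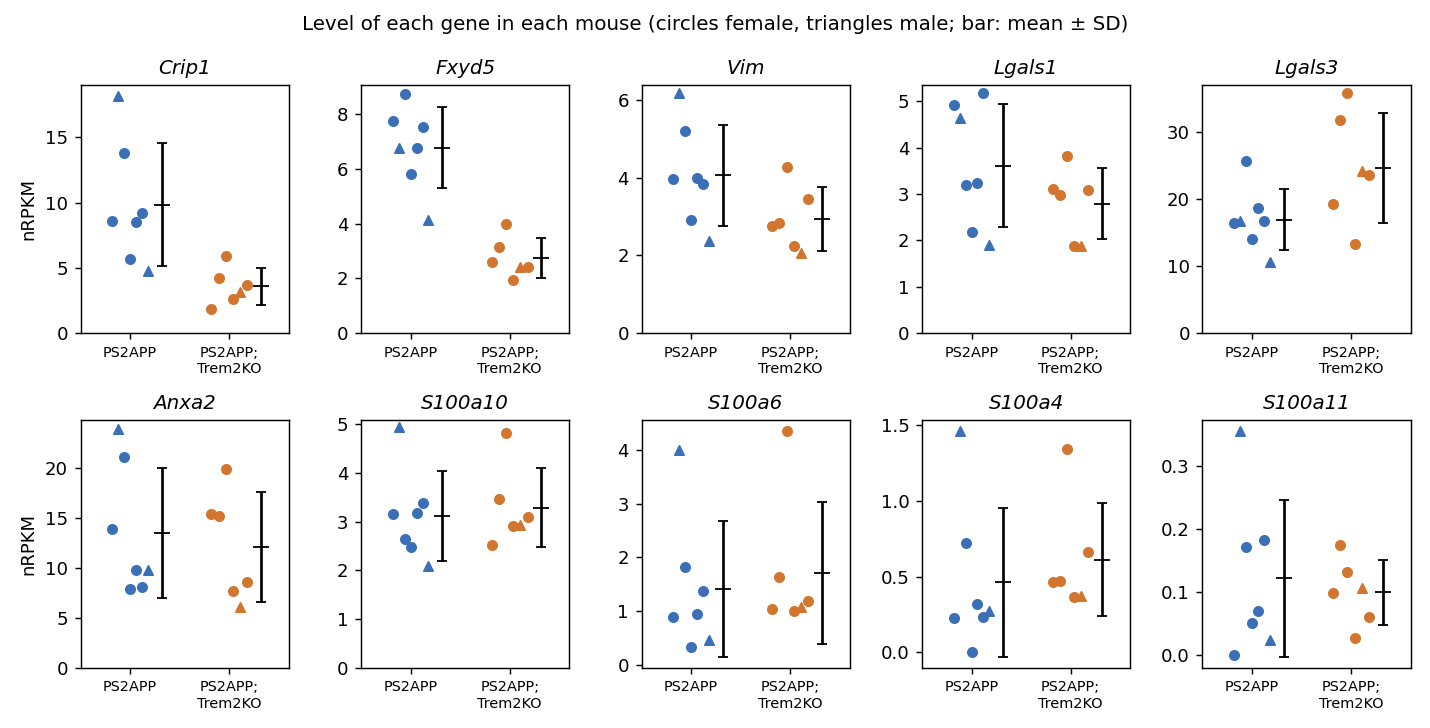
nRPKM of each gene in each mouse, with PS2APP mice in blue, PS2APP;Trem2KO mice in orange, circles for females, triangles for males and bars for the mean ± SD. The genotypes are separate for Fxyd5 and nearly so for Crip1, and single mice at 4.01 and 4.36 nRPKM stand above the rest for S100a6.

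Of the 9 genes that passed the count filter, 2 were lower past both cutoffs (adjusted p at most 0.05, change 2-fold or more), as were 0.691% of all genes tested. The same 2, Crip1 and Fxyd5, were the ones lower at the adjusted p alone (1.53% of all genes). No member was higher at that p, as 0.503% of all genes were. Fxyd5 was the one gene without overlap of normalized counts, lower in all PS2APP;Trem2KO mice, as were 1.22% of all genes, and no member was higher without overlap (0.421%). Since the members were chosen from this contrast, nothing is read from these counts. S100a11 did not pass the filter. Over the 9 genes the median log2 fold change was -0.15, beside 0.004 over all genes tested.

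Leaving out single mice changed the call of Crip1 and of no other member. With edgeR's quasi-likelihood test and Benjamini-Hochberg adjustment its adjusted p was 0.0529 without PS2APP replicate 3 and between 0.0536 and 0.061 without PS2APP;Trem2KO replicate 1, 4, 5 or 6, with log2 fold changes from -1.66 to -1.25 over the 13 such fits. Without both mice of the highest monocyte marker levels, Crip1 had a log2 fold change of -1.45 ± 0.28 (SE) and Fxyd5 one of -1.44 ± 0.18 (SE). PS2APP;Trem2KO replicate 3, 1 of those 2 mice, was the only one of its genotype in the PS2APP range of Crip1. Leaving it out therefore ended the overlap of Crip1 by itself, whatever its marker level. Leaving out PS2APP;Trem2KO replicate 3 alone turned S100a6 to -0.23, so the sign of its difference rests on 1 mouse.

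**Figure D2:**
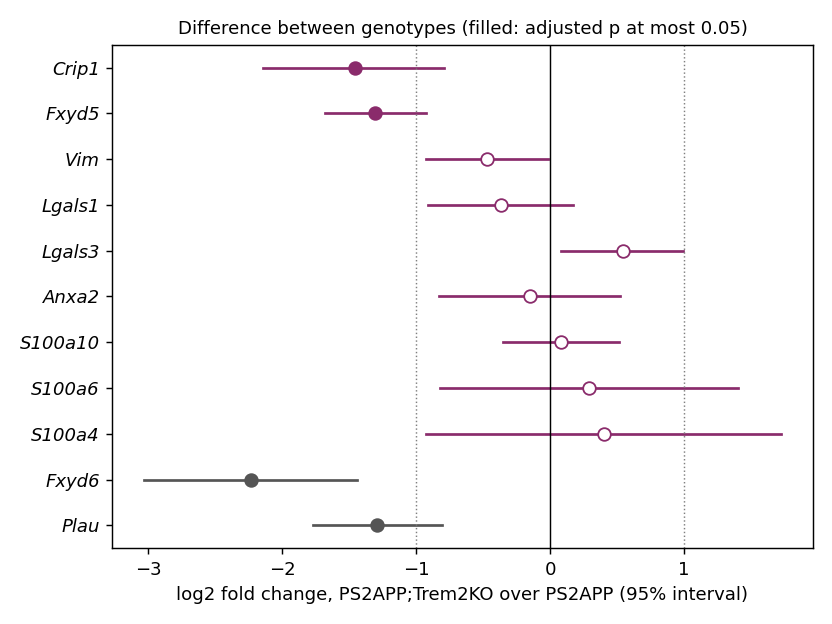
Log2 fold change of PS2APP;Trem2KO over PS2APP with its 95% interval for the 9 members that passed the count filter (purple) and for Fxyd6 and Plau (grey), where filled points have an adjusted p of 0.05 or less and dotted lines mark 2-fold. Crip1 (-1.46), Fxyd5 (-1.31), Fxyd6 (-2.23) and Plau (-1.29) lie left of the lower dotted line, and the intervals of the annexin and S100 genes cross 0.

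Ordered by mean nRPKM, the genes of PS2APP mice ran Lgals3 (16.9), Anxa2 (13.5), Crip1 (9.82), Fxyd5 (6.79), Vim (4.06), Lgals1 (3.61), S100a10 (3.12), S100a6 (1.41), S100a4 (0.462) and S100a11 (0.122). This order depends on the gene lengths behind nRPKM. In CPM, which uses no length, Fxyd5 was above Crip1 in every PS2APP mouse, with 41.8 against 8.77 in replicate 1. The order of neighbours held in all 7 mice for Fxyd5 over Vim, S100a10 over S100a6 and S100a6 over S100a4, and in 6 of 7 for each of the 3 pairs from Lgals3 down to Fxyd5. Vim was above Lgals1 in 5 of 7 mice and Lgals1 above S100a10 in 4 of 7, so those 3 genes were not separated beyond their spread. Without Trem2 the top was Lgals3 (24.6) and Anxa2 (12.1), in that order in all 6 mice. Crip1 (3.57), S100a10 (3.29), Vim (2.93), Lgals1 (2.79) and Fxyd5 (2.75) followed, and no neighbouring pair of these 5 kept its order in more than 4 of 6 mice.

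Ratios within a mouse do not depend on how the library was scaled. The ratio of the Fxyd5 to the Lgals3 level was between 0.342 and 0.475 in PS2APP mice (median 0.406) and between 0.099 and 0.148 in PS2APP;Trem2KO mice (median 0.107). The ratio of Crip1 to S100a6 was between 4.54 and 17.5 (median 8.99) and between 1.36 and 3.14 (median 2.6). Both ratios were separate between genotypes, with no mouse in the range of the other group. Each sets a member called lower over one with a positive log2 fold change. The members were chosen on this contrast and other gene pairs were not counted, so nothing is read from the separation. The ratio of Crip1 to Fxyd5 overlapped, at 0.972 to 2.7 with Trem2 and 0.705 to 1.53 without.

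The way the genes varied among mice of 1 genotype was not used to choose them. After the genotype means of log2 CPM were removed, all 36 pairs of the 9 genes were positively correlated over the 13 mice, from r = 0.4 for Fxyd5 with S100a4 to 0.91 for Crip1 with S100a6, with a median of 0.71. Crip1, Vim, S100a6 and S100a10 formed a close set, with r between 0.77 and 0.91. Fxyd5 was closest to Lgals3 among the members (r = 0.9), although the levels of those 2 genes differed between genotypes in opposite directions. Anxa2 followed S100a10, its protein partner, less closely (r = 0.5) than it followed Vim (0.76). Pairs of other genes were not counted, so nothing is read from the number of positive pairs. These correlations are descriptions over 13 libraries that share their depth and scaling. Within a genotype the SD of log2 CPM was 1.23 for S100a4, 1.02 for S100a6, 0.66 for Anxa2 and 0.63 for Crip1, beside a median of 0.28 over all genes, and 0.35 for Fxyd5.

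**Figure D3:**
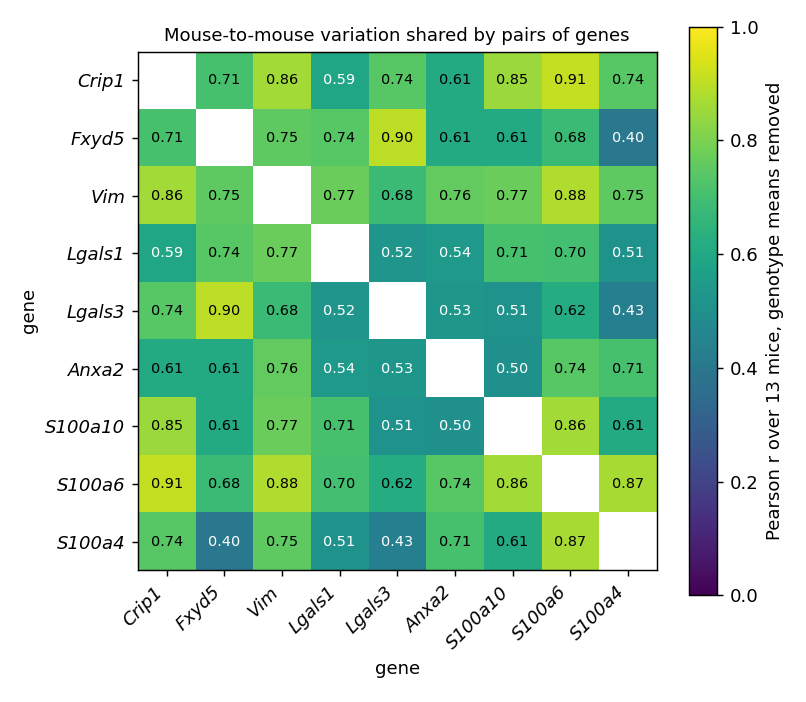
Pearson r of log2 CPM between pairs of genes over 13 mice after removal of the genotype means, with colour running from 0 to 1. All 36 values are positive, from 0.4 to 0.91, and Crip1, Vim, S100a6 and S100a10 share the high values. Pairs of other genes were not counted.

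Among 11014 other genes (11015 for S100a4) with a mean of at least 1 nRPKM, those most like each member over the 13 mice were found by the same r. Those for Crip1 were S100a6 (0.91), Rpl14-ps1 (0.91) and Fth1 (0.9), and those for S100a6 were Tma7 (0.94), Crip1 (0.91) and Napsa (0.9). Fxyd5 was most like Prdx1 (0.96), Gm6085 (0.95) and Afp (0.93). Lgals3 was most like Atp5b (0.95) and Cd9 (0.93), and Lgals1 most like Mea1 (0.94), Ptpn18 (0.92) and Atp5h (0.91). For Vim the genes were Txn1 (0.93), Rpl14-ps1 (0.93) and Ccl8 (0.91). For Anxa2 they were Cox6a2 (0.94), Prdx6 (0.91) and Clic4 (0.89), for S100a4 S100a6 (0.87) and Tma7 (0.85), and for S100a10 Aes (0.9), Rps27l (0.89) and Minos1 (0.89).

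The mean log2 CPM of 63 ribosomal protein genes moved with the members within a genotype, with r from 0.41 for S100a4 to 0.84 for Fxyd5. It was between 1.01 and 1.44 in PS2APP mice (median 1.36) and between 1.03 and 1.4 in PS2APP;Trem2KO mice (median 1.17). Its r with the log2 total count was -0.67. PS2APP replicate 7 had the lowest value among PS2APP mice and 114857155 counts, and it was the lowest of its genotype for 6 of the 9 genes. PS2APP;Trem2KO replicate 3 had the highest value of its genotype and was the highest for all 9. A fit with this level as a covariate was added after the data were seen. Its log2 fold changes were -1.09 ± 0.21 (SE) for Crip1, -1.1 ± 0.11 (SE) for Fxyd5 and 0.73 ± 0.17 (SE) for Lgals3. Lgals3 then had an adjusted p of 0.0417 by edgeR's quasi-likelihood test, against 0.238 by the same test without the covariate. This was the 1 of 25 alternative fits in which Lgals3 passed. Lgals1 was at -0.07 ± 0.21 (SE) and Vim at -0.22 ± 0.16 (SE). Without the covariate these were -1.46 for Crip1, -1.31 for Fxyd5, 0.54 for Lgals3, -0.37 for Lgals1 and -0.47 for Vim. The part of library quality in these results was not tested.

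The members were next compared with markers of other myeloid cells among mice of the same genotype. This asks whether their level follows the RNA level of those markers, which is not a count of cells. The share of all genes with a positive r to either marker score was not counted. Monocyte markers (Ccr2, Ly6c2, Plac8, Chil3 and 7 others) were 9 of 11 above 0 in all mice, none was at 0 in every mouse, and their sum was 4.3 to 27.8 nRPKM in PS2APP and 4.35 to 21.5 in PS2APP;Trem2KO mice. The score of these markers had a positive r with each of the 10 members among the 7 PS2APP mice, between 0.64 and 0.97. S100a4 and S100a11 were each at 0 in 1 of these mice and were given a value below the lowest measured. S100a6 had r = 0.97 (exact permutation test, two-sided, p = 0.000397, adjusted p = 0.0119 over 40 relations) and rho = 0.96 (exact permutation p = 0.00278, adjusted p = 0.0556). Crip1 had r = 0.97 (exact permutation p = 0.000595, adjusted p = 0.0119) and rho = 0.96 (exact permutation p = 0.00278, adjusted p = 0.0556). Without the 2 mice farthest from the median score, r was 0.98 for S100a6 and 0.9 for Crip1. These 2 relations were the ones past the adjusted threshold of 0.05 by Pearson's r, and by rho none was. Over the 10 females of both genotypes, after the genotype means were removed, S100a6 passed again (r = 0.83, adjusted p = 0.0352 over 20 relations, permutation test) and Crip1 did not (r = 0.71, adjusted p = 0.062, permutation test).

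For Vim, r with the monocyte score among PS2APP mice was 0.93 (exact permutation p = 0.00556, adjusted p = 0.0635), and for Fxyd5 it was 0.65 (exact permutation p = 0.112, adjusted p = 0.214). Leaving out the 2 farthest mice gave 0.8 and 0.77. Among the 6 PS2APP;Trem2KO mice all r were again positive, from 0.08 for Lgals1 to 0.71, with no adjusted p under 0.214 by the exact permutation test, and 6 of 10 were positive without the 2 farthest mice. Whether the relation differs between genotypes was not tested. A fit with the monocyte score as a covariate was added after the data were seen. Its log2 fold changes were -1.3 ± 0.21 (SE) for Crip1, -1.27 ± 0.14 (SE) for Fxyd5 and 0.67 ± 0.29 (SE) for S100a6. Without the covariate they were -1.46, -1.31 and 0.29. The part of monocytes in these differences was not tested.

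**Figure D4:**
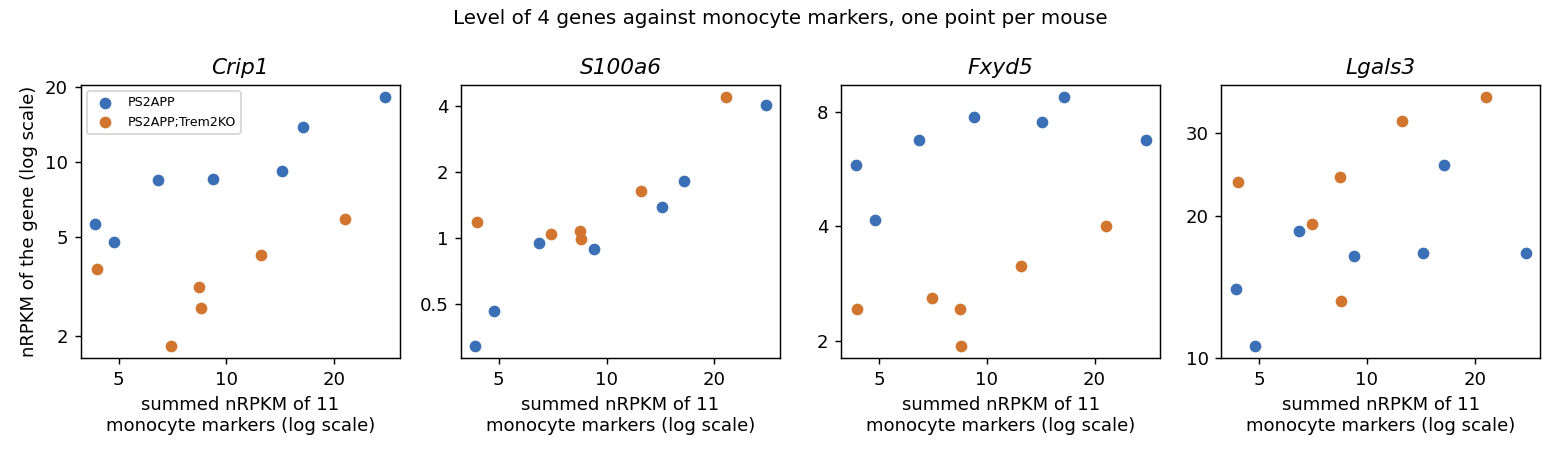
Level of Crip1, S100a6, Fxyd5 and Lgals3 in nRPKM against the summed nRPKM of 11 monocyte markers, both on log axes, with 1 point per mouse, PS2APP in blue and PS2APP;Trem2KO in orange. Crip1 and S100a6 climb with the markers in PS2APP mice. The part of monocytes in the differences between genotypes was not tested.

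Border macrophage markers (Mrc1, Cd163, Lyve1, Pf4 and 8 others) were all above 0 in every mouse, with sums of 54.7 to 80 nRPKM in PS2APP and 63.4 to 98.6 in PS2APP;Trem2KO mice. The r of the 10 members with their score was positive throughout, with medians of 0.7 and 0.74, and the lowest adjusted p by the exact permutation test was 0.0635, for Lgals1 in PS2APP mice (r = 0.89). Without the 2 farthest mice, 3 of 10 members kept a positive r in PS2APP mice and the median was -0.4, so in that genotype the relation rested on those mice. In PS2APP;Trem2KO mice 9 of 10 stayed positive, with a median of 0.54. Over the 10 females, after the genotype means were removed, the relation passed for Lgals1 (r = 0.83, adjusted p = 0.0352 over 20 relations, permutation test) and S100a6 (r = 0.79, adjusted p = 0.0413, permutation test). Of 12 neutrophil markers, 3 were above 0 in all mice. Their sum reached 266 nRPKM in PS2APP replicate 2 against 0.278 to 46.7 in PS2APP;Trem2KO mice, and it includes S100a8 and S100a9. All 6 neutrophil markers tested had a negative log2 fold change, from -1.61 to -0.65 with a median of -1.5, the same direction as Crip1 and Fxyd5. Over all genes tested, 8420 of 17086 were negative. None of the 12 border macrophage, 10 monocyte or 6 neutrophil markers tested passed an adjusted p of 0.05 between genotypes by edgeR's quasi-likelihood test. The sort excluded Ccr2+ and Ly6g+ cells by their surface protein, and the part of any other cell type in the members' levels was not tested.

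The sexes were compared with genotype in the model, a contrast that the choice of genes did not use. With edgeR, 0 of the 9 genes passed an adjusted p of 0.05, where 0.0234% of all genes did, and 0 had an unadjusted p under 0.05. By voom+limma, 2 (Fxyd5 and Lgals1) had an unadjusted p under 0.05 and none an adjusted one, and by DESeq2 none had either. The estimate of males minus females was -0.35 for Fxyd5 (95% interval -0.76 to 0.07), 0.13 for Crip1 (-0.67 to 0.94) and 0.73 for S100a4 (-0.94 to 2.39). With 3 males, 2 of them PS2APP, the intervals were wide. Among females alone Crip1 ranged from 5.65 to 13.8 nRPKM in PS2APP and from 1.83 to 5.92 in PS2APP;Trem2KO mice, and Fxyd5 from 5.81 to 8.74 and from 1.94 to 4.

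Relatives and working partners of the members were examined in 7 lists of 94 genes, of which 68 passed the count filter. At an adjusted p of 0.05 by edgeR's quasi-likelihood test, 2 were lower in PS2APP;Trem2KO mice, Fxyd6 and Plau, and none was higher, beside 1.53% lower over all genes. The lists were written with earlier results of these data known.

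Fxyd6, like Fxyd5 a small regulator of the sodium pump, had between 0.907 and 3.74 nRPKM in PS2APP mice (median 1.47) and between 0.16 and 0.698 in PS2APP;Trem2KO mice (median 0.417). The genotypes did not overlap, and the log2 fold change was -2.23 ± 0.37 (SE), with an adjusted p of 0.00422. Of 5 Crip and Fxyd relatives tested it was the 1 that changed. Csrp1, the one with the highest level, had a log2 fold change of 0.05 ± 0.21 (SE), and Crip2 one of -0.24 ± 0.49 (SE).

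Plau encodes urokinase, the protease that activates plasminogen, and belongs with the plasminogen system that annexin A2 and p11 serve. It ranged from 2.43 to 3.5 nRPKM in PS2APP mice (median 3.05) and from 0.505 to 1.92 in PS2APP;Trem2KO mice (median 1.21). The groups were separate, and the log2 fold change was -1.29 ± 0.23 (SE), with an adjusted p of 0.00626. Its receptor Plaur, at 40.1 ± 7.99 (SD, n = 7) and 33.3 ± 6.68 nRPKM (SD, n = 6), had a log2 fold change of -0.27 ± 0.14 (SE) that did not pass. The list's median was -0.23 over 6 genes, 1 of which, Hltf, encodes a DNA helicase outside that system. Both Fxyd6 and Plau passed in all 13 fits that left out 1 mouse.

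No other S100, annexin or galectin gene passed the adjusted threshold by edgeR. Of 7 genes tested in the list of other S100 genes, 6 had a negative log2 fold change (median -0.21), beside 8420 of all 17086 genes tested. Among those 6 is S100pbp (-0.06), the gene of an S100P-binding protein and not of an S100 protein. S100a9, a neutrophil and monocyte alarmin and the highest of them, was at 19 ± 20.8 nRPKM (SD, n = 7) in PS2APP and 6.22 ± 3.93 (SD, n = 6) in PS2APP;Trem2KO mice, with a log2 fold change of -1.6 ± 0.72 (SE) and an adjusted p of 0.309. The 9 other annexins had a median of 0.09, and the most abundant, Anxa3, was at 184 ± 13.3 and 158 ± 12.2 nRPKM (SD, n = 7 and 6), above Anxa2, and its log2 fold change was -0.22 ± 0.07 (SE). The 5 genes tested of the galectin list, which also holds Lgals3bp, the gene of a galectin-3 binding protein, had a median of 0.11. Lgals9, at 187 ± 18.5 and 213 ± 16.9 nRPKM (SD, n = 7 and 6), was above Lgals3, and its log2 fold change was 0.18 ± 0.08 (SE).

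No filament or cytoskeletal gene passed the adjusted threshold by edgeR. Among 8 intermediate filament genes and linkers, 7 had a negative log2 fold change (median -0.26), with Gfap, the astrocyte filament and the highest in level, at -0.27 ± 0.19 (SE). Of 28 cytoskeleton and motility genes, 21 were negative (median -0.15). Over all genes tested, 8420 of 17086 were negative, and nothing is read from the counts in these lists. Tmsb4x, which encodes the actin-sequestering thymosin β4, was at 1720 ± 318 nRPKM (SD, n = 7) and 1370 ± 224 (SD, n = 6), with a log2 fold change of -0.33 ± 0.13 (SE) and an adjusted p of 0.241. DESeq2 called 9 of the 61 related genes to which it gave an adjusted p (14.8%), where it called 5.97% of all such genes, adding Cd44, Plec, Tln1, Cfl1, Capg and Anxa3 among the lower and Anxa9 among the higher genes, while voom+limma called Fxyd6 and Plau alone.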

How the data were processed

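Sorted cells of 13 mice were sequenced as single-end reads of 50 bases after SMART-seq v4 amplification. The authors discarded adapter, low-quality and rRNA reads, aligned the rest to GRCm38 with GSNAP (version not given in the sources used here), and deposited 2 values for each gene and mouse. These are counts of uniquely aligned reads, deposited without normalization, and nRPKM, an RPKM value that the authors scaled by size factors. Whether counting used strand is not given in the sources used here. The authors tested with voom+limma.

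Here the counts were fitted with edgeR 4.0.16 (R 4.3.3) after filterByExpr by genotype and TMM scaling, with glmQLFit and glmQLFTest and no covariate, over 17086 genes with Benjamini-Hochberg adjustment. The SE is the log2 fold change divided by the square root of F. Marker scores are means of log2(nRPKM) minus each gene's mean, with zeros set 1 log2 step below the gene's lowest value above 0. Two-sided exact permutation tests used numpy 2.4.6, pandas 2.3.3 and scipy 1.17.1. Fitted intervals and SEs include the spread between mice, and the detection limit of 3 counts covers counting error only. Coordinates and exons are those of GENCODE M21, and shared words are 50-base stretches of a gene's transcripts that also occur in another gene's.

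The members and lists were chosen with earlier results of these data known. Named genes are the members, each list's genes at an adjusted p of 0.05 or less (at most 5), each list's gene with the highest level, and the 3 genes most like each member, of which some are not reported here. Crip2, S100pbp, Lgals3bp, Hltf, Anxa9, Cd44, Plec, Tln1, Cfl1 and Capg were named after their values were seen. Other settings tried were DESeq2 1.42.0, voom+limma (limma 3.58.1), limma on log2(nRPKM + 0.1) or log2(nRPKM + 1), RLE in place of TMM, a minimum of 10 counts in 6 mice or no filter, a sex term, the females alone, a fold change of 1.2 as the null, and fits without each mouse. Covariates for monocyte markers and ribosomal protein genes, and the fit without 2 mice, were added after the data were seen.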

Additional observations from a re-analysis of the deposited data

Results flagged for a closer look

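In 3 of 24 groups examined (each member, Fxyd6 and Plau in each genotype), 1 mouse stood apart from the others by Dixon's test, which flags about 1 in 20 groups by chance. S100a6 was at 4.01 nRPKM in PS2APP replicate 2, with the other 6 PS2APP mice between 0.323 and 1.82. It was at 4.36 in PS2APP;Trem2KO replicate 3, with the other 5 between 0.992 and 1.63. S100a4 was at 1.34 in that same PS2APP;Trem2KO mouse, with the others between 0.368 and 0.66. These are the mice with the highest monocyte marker sums of their genotypes, 27.8 and 21.5 nRPKM, but not of those markers alone. PS2APP replicate 2 was also the highest of its genotype for neutrophil (266), dendritic cell (13.5) and fibroblast and vessel markers (24.8). PS2APP;Trem2KO replicate 3 was also the highest of its genotype for border macrophage (98.6) and dendritic cell markers (25). The part of any of those cells was not tested.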

How the results depend on the processing

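Fxyd5 was called lower in all 25 alternative fits, and Crip1 in 19 of 25. Lgals3 was called higher in 1 of 25, the fit with ribosomal protein gene level as a covariate. The count of members past both cutoffs, and that at an adjusted p of 0.05, was 1 in females only (Crip1 had an adjusted p of 0.0536) and 1 or 2 when single mice were left out. Against a fold change of 1.2, 1 member passed. Members without overlap were 1 or 2 when single mice were left out. They were 2, Crip1 joining Fxyd5, without PS2APP;Trem2KO replicate 3, alone or together with PS2APP replicate 2. That replicate 3 was the only mouse of its genotype in the PS2APP range of Crip1, so its removal fixed this outcome. Related genes at an adjusted p of 0.05 were 9 by DESeq2 and 2 to 4 when single mice were left out, with 4 without PS2APP replicate 1. The cause of these changes was not tested. No member was called for sex in any of 16 alternatives, and the count of marker relations that passed was 2 of 40 on each scale and 3 of 20 over the females, where Crip1 with monocyte markers was lost (adjusted p = 0.062, permutation test) and Lgals1 and S100a6 with border macrophage markers were gained.

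Signs turned for genes near 0. The log2 fold change of Anxa2 was 0.13 in females only, 0.09 with ribosomal protein gene level as a covariate and 0.04 without PS2APP replicate 2. That of S100a10 was -0.01 without PS2APP replicate 7 and -0.06 without PS2APP;Trem2KO replicate 3, and that of S100a6 was -0.23 without the latter. Lowest and highest values over the fits without 1 mouse were -0.35 and 0.04 for Anxa2, -0.06 and 0.22 for S100a10, and -0.23 and 0.8 for S100a6. No paired analysis was possible because the labels carry no replicate numbers that tie mice of different genotypes together. The study's methods state that mice were mostly handled in pairs of 1 per genotype up to the sort, so the fits leave that pairing out.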
